A study of Caenorhabditis elegans with 8 samples.

Results

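The nuclear pore and nuclear transport genes of Caenorhabditis elegans were taken as every listed gene whose symbol is npp, imb, ima, xpo or ran followed by a number only. The rule gave 39 members among the 17076 genes of the deposited table: 25 nucleoporin genes (npp), 3 importin alpha genes (ima), 3 importin beta genes (imb), 3 exportin genes (xpo) and 5 genes of the Ran cycle (ran). One further gene that matches the rule by name, npp-26, is not analysed here. Poly(A)-selected RNA came from whole N2 hermaphrodites, the wild type, labelled adult day 5 (180 h of culture from synchronized first-stage larvae) or adult day 1 (60 h), both grown at 20 °C on NGM plates with OP50 bacteria. Both ages had 4 libraries, which the labels number as batches 1 to 4. The labels do not fully settle the ages, since the culture times lie further apart than the stated ages, and the written design names the day 1 control like the day 5 worms. Nothing says that the 4 libraries of an age came from separate cultures, so a p-value here weighs a difference against the scatter of the libraries alone, and that scatter could be technical.

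The nuclear pore is a ring-shaped channel through the nuclear envelope, built from many copies of a conserved set of proteins. An outer ring, an inner ring and membrane proteins form the scaffold. Nucleoporins rich in phenylalanine-glycine repeats fill the channel, and filaments face the cytoplasm and the nucleus. Importins bind cargo in the cytoplasm and exportins bind it in the nucleus, and the small GTPase Ran sets the direction, because its GTP form is held at a high level in the nucleus. In the worm the early embryo divides rapidly with stores made in the germline, and nucleoporins, importins and the Ran cycle are also known to act in spindle assembly and in rebuilding the nuclear envelope after division.

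Values are the deposited ones, whole reads over the size factor of their library, and the 4 values given for a gene at an age are those of batches 1 to 4 in that order. The libraries held 20569012 to 22305681 reads at day 5 and 19345868 to 20763236 at day 1. Every member was well covered, with at least 211 reads in each library, and all 39 passed the filter for testing, a mean value of at least 1. A log2 difference is the day 5 mean minus the day 1 mean of log2(value + 1), and its standard error (SE) comes from a limma model of every gene tested. Markers of germline, sperm, muscle, intestine, hypodermis and neurons were all detected. In such RNA fewer cells of a type and less RNA per cell cannot be told apart.

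Transcripts of the nuclear pore and of nuclear transport were higher at day 5 almost throughout. Of the 39 members 37 were called higher (adjusted p under 0.05) and none lower, the last also at an unadjusted p under 0.05, with edgeR and with DESeq2, against 28.8% higher and 26.8% lower (55.6% in either direction) among the 16739 genes tested. The 2 members not called were npp-20 and ima-3. The median log2 difference of the 39 was 1.51, beside -0.065 over all genes tested, and 34 members were called with at least a 2-fold rise, against 24.1% of genes. In 34 members every day 5 library lay above every day 1 library, against 27.6% of genes. The groups overlapped for npp-12, npp-20, npp-21, npp-25 and ima-3. Summed over the members, the libraries reached 289760.4, 192420.2, 208197 and 244338 at day 5 and 106418, 111219, 61122 and 74185 at day 1. The sums did not overlap, and their means stood in a ratio of 2.65.

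**Figure D1:**
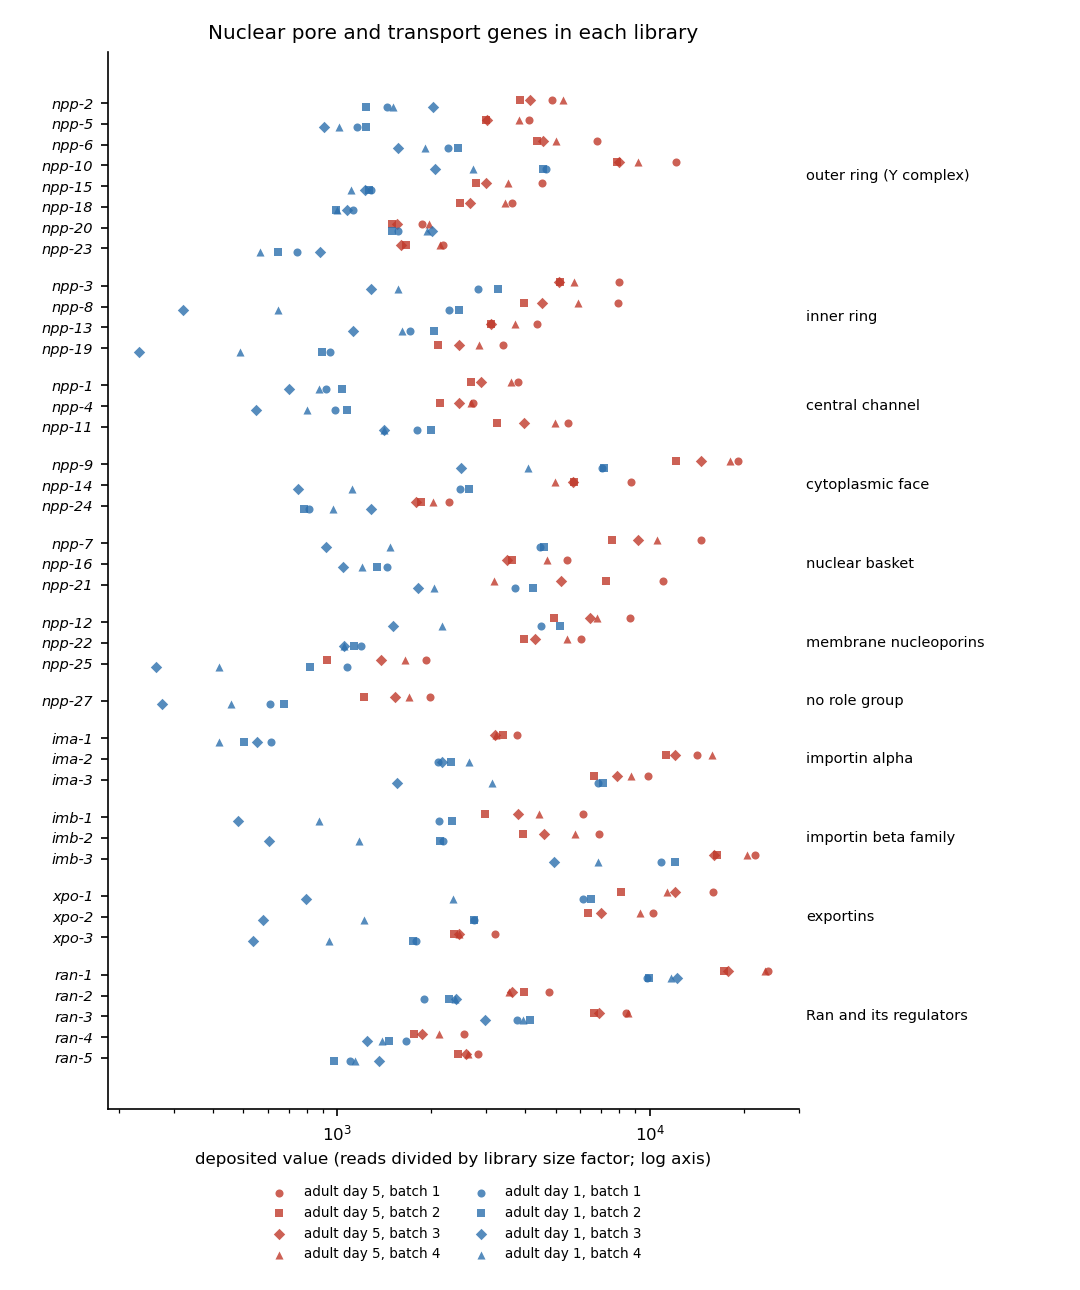
Deposited value (reads divided by the library size factor, log axis) of each of the 39 members in the 4 day 5 libraries (red) and the 4 day 1 libraries (blue), with a marker shape per batch and members grouped by role. Red lies to the right of blue without overlap in 34 members, npp-20 shows no separation, and the day 1 libraries of batches 3 and 4 lie far to the left for members such as xpo-1 and npp-8.

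The rise was present within each batch but its size differed. The median of the members was 1.56 within batch 1, 0.803 within batch 2, 1.996 within batch 3 and 1.81 within batch 4, and 36 members were called and higher at day 5 in all 4 batches, against 28% of genes. The exceptions were npp-20, lower in batch 3, and ima-3 and npp-12, both lower in batch 2. For the 34 members without overlap, being higher in all 4 batches holds under any pairing of the libraries. The count by batch therefore adds only npp-21 and npp-25 to those 34. Among day 5 libraries, batch 1 held the highest value of 35 of 39 members, against 5690 of 16739 genes, and batch 2 the lowest of 29, against 4565 genes. Among day 1 libraries, batch 3 held the lowest value of 28 members, against 5564 genes. With day 1 batches 3 and 4 left out, 33 of 39 members were called higher, against 30.1% of genes, and the median was 1.19. With day 1 batches 1 and 2 left out, 38 of 39 were called higher, against 31.3% of genes, and the median was 1.89.

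Germline and oocyte markers moved with the members. Of 25 such markers 24 were higher and none lower, with differences from 0.092 (glh-1, not called) to 9.86 (nos-2) and a median of 4.24. Beside this and the other marker counts, 28.8% of all genes tested were called higher and 26.8% lower. The meiotic markers him-3, syp-1, rec-8 and htp-3 rose by 1.16 to 1.69, while rme-2 and cpg-2 rose by 6.09 and 6.91. Small rises were not limited to these meiotic markers, since glh-4 and pgl-1 rose by 1.29 and 1.32. Between the ends lay gld-1 at 3.30 and car-1 at 2.72. The summed value of the 25 markers was 305697 to 462801 at day 5 and 23917 to 47488 at day 1, a sum in which abundant genes weigh most. In the day 1 libraries of batches 1 to 4 that sum was 47488, 45771, 23917 and 25959, lowest in batches 3 and 4, as for the members. One marker, nos-2, was at 0 in the day 1 libraries of batches 3 and 4. None of 15 sperm markers was called by limma (2 were with edgeR, spe-9 and spe-42, and 3 with DESeq2, these and fer-1; 2 had an unadjusted p under 0.05), and their sum was 508 to 3513 at day 5 and 6484, 3896, 353 and 385 in the day 1 libraries; spe-38 was at 0 in day 1 batch 4 and ssp-19 in day 1 batches 3 and 4. Muscle markers were lower in 15 of 15, with a sum of 46602 to 94838 at day 5 and 163496 to 363099.5 at day 1. Of 11 intestine markers 6 were lower and none higher (75409.6 to 98072 at day 5, 147990.2 to 224801 at day 1), of 12 hypodermis markers 7 lower and 3 higher (9679 to 25666 at day 5, 88664 to 115741 at day 1), and of 12 neuron markers 8 lower and 2 higher (7764 to 9859.7 at day 5, 8579 to 10994 at day 1). No marker of these 4 tissues was at 0 in any library. Low day 1 sums in batches 3 and 4 were not particular to the germline markers. Across day 1 batches 1 to 4 the muscle sum was 272874, 363099.5, 163496 and 267420. The intestine sum was 210375, 224801, 147990.2 and 185122, so both were also lowest in batches 3 and 4. The hypodermis sum was highest in these batches, and the neuron sum was lowest in batch 3 and highest in batch 4. The part of the germline share of the RNA in the rise of the members was not tested.

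The outer ring of the pore is the Y complex, the scaffold subassembly that is recruited to chromatin when the nucleus re-forms. Of its 8 members 7 rose, with a median of 1.47 over the 8. npp-5 (Nup107; WBGene00003791; chromosome II, 11596767 to 11599809 in build WBcel235) had 4117, 2989, 3005 and 3823 at day 5 and 1159, 1237, 903 and 1008 at day 1, the largest difference of the ring at 1.69 (SE 0.18, limma adjusted p = 5.34e-05). npp-2 (Nup85), the member with the highest level per kilobase of exon at day 5, had 4865, 3835, 4131 and 5279.5 at day 5 and 1443, 1232, 2022 and 1506 at day 1, a difference of 1.56 (SE 0.196, limma adjusted p = 0.000128). In both genes all day 5 values lay well above the day 1 values. npp-6 (Nup160), npp-15 (Nup133), npp-18 (Seh1) and npp-23 (Nup43) rose by 1.34 to 1.52. npp-10 encodes a precursor that is cut into the channel protein Nup98 and the Y complex subunit Nup96, and it rose by 1.47 (SE 0.29, limma adjusted p = 0.0018).

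npp-20 (Sec13; WBGene00003806; chromosome IV, 1490653 to 1496022) was the member of the ring that was not called. It had 1859, 1498, 1557 and 1964 at day 5 and 1568, 1491, 2003 and 1934 at day 1, with overlapping groups and a difference of -0.022 (SE 0.18, limma adjusted p = 0.927). Its level per kilobase was 1506 at day 5 and 1532 at day 1, while the other 7 ranged from 951 to 2378 at day 5 and from 335 to 815 at day 1. It was thus the most abundant transcript of the Y complex per length at day 1 and lay within the range of the others at day 5. Sec13 also belongs to the COPII coat, which forms vesicles at the endoplasmic reticulum. The sign of this difference was not stable: leaving out day 1 batches 3 and 4 put it at 0.16.

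All 4 inner ring members rose, with a median of 1.88, which was 1.07 with day 1 batches 3 and 4 left out. npp-8 (Nup155; WBGene00003794; chromosome IV, 1567921 to 1595824), which joins the inner ring to the membrane, had the largest difference of all nucleoporins, 2.38 (SE 0.603, limma adjusted p = 0.00735). It had 7914, 3965, 4533 and 5896 at day 5 and 2269.7, 2448, 320.3 and 645 at day 1, so the day 1 libraries differed 7.64-fold among themselves. With day 1 batches 3 and 4 left out its difference was 1.19 (adjusted p = 0.0046). npp-19 (Nup35) had 3395, 2094, 2453 and 2849 at day 5 and 949, 890.04, 232 and 487 at day 1, a difference of 2.25 (SE 0.41, limma adjusted p = 0.00119). Its level per kilobase of exon, 1941 at day 5 and 460.1 at day 1, was the highest of the ring at day 5. npp-13 (Nup93), a linker of the ring, showed the smallest rise, 1.15 (SE 0.22, limma adjusted p = 0.00138), with 4369, 3093, 3092 and 3691 at day 5 and 1711, 2035, 1122 and 1616 at day 1. npp-3 (Nup205), a large scaffold protein, rose by 1.51 (SE 0.31, limma adjusted p = 0.00239), and 314 of its 5443 exonic bases are shared with another gene.

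The central channel is lined by the complex of Nup62, Nup58 and Nup54, whose repeats form the permeability barrier, and all 3 genes rose. npp-1 (Nup54; WBGene00003787; chromosome IV, 9858488 to 9862119) had 3775, 2676, 2884 and 3601 at day 5 and 918, 1033, 698 and 871 at day 1, a difference of 1.88 (SE 0.19, limma adjusted p = 3.77e-05). npp-11 (Nup62), the most abundant of the 3 per kilobase, had 5473, 3235, 3960.1 and 4959 at day 5 and 1794, 1991, 1408 and 1413 at day 1, the smallest difference at 1.403 (SE 0.21, limma adjusted p = 0.00039). npp-4 (Nup58) rose by 1.58 (SE 0.23, limma adjusted p = 0.000274). Even at the smallest rise no day 1 value reached the lowest day 5 value. The 3 partners of 1 complex were nearer to each other per kilobase at day 5, from 1089 to 1698, than at day 1, from 296 to 636, a difference in ratio that was not tested.

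On the cytoplasmic face npp-9 (Nup358, which in vertebrates binds Ran and the SUMO-modified Ran GTPase activator; WBGene00003795; chromosome III, 3400638 to 3404479) was the nucleoporin with the highest level per kilobase, 5269 at day 5 and 1701 at day 1. It had 19219.8, 12128, 14619 and 18109 at day 5 and 7010.2, 7124, 2487 and 4062 at day 1, a difference of 1.73 (SE 0.34, limma adjusted p = 0.00173). npp-14 (Nup214), part of the mRNA export platform, had 8688, 5707, 5697 and 4969.8 at day 5 and 2468, 2632, 749 and 1113 at day 1, the largest difference of this face at 2.004 (SE 0.398, limma adjusted p = 0.00189). npp-24 (Nup88), the partner of Nup214, had 2276, 1856, 1780.3 and 2019 at day 5 and 813, 779, 1282 and 970.2 at day 1, and its rise was smaller, 1.07 (SE 0.198, limma adjusted p = 0.00128). The day 1 libraries moved in different ways in these partners: batch 3 was the lowest for npp-14 and the highest for npp-24. rae-1, a further gene of this face under a name outside the rule and added after its values were seen, rose by 1.56 (SE 0.17, limma adjusted p = 5.81e-05).

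The nuclear basket reaches into the nucleoplasm, and its 3 members rose with a median of 1.76, which was 1.17 with day 1 batches 3 and 4 left out. npp-7 (Nup153; WBGene00003793; chromosome I, 5692264 to 5697500), a docking site for importin beta, had 14604, 7552, 9139 and 10564 at day 5 and 4437, 4579, 921 and 1471 at day 1, a difference of 2.15 (SE 0.501, limma adjusted p = 0.00466). npp-16 (Nup50), which helps to release importin alpha from its cargo, had 5445, 3635, 3496 and 4678 at day 5 and 1446, 1337, 1045 and 1199 at day 1, with the highest level per kilobase of the basket at day 5 (2666) and at day 1 (777), and rose by 1.76 (SE 0.196, limma adjusted p = 6.34e-05). npp-21 (Tpr), the main filament protein of the basket, had 11038, 7233, 5181 and 3171 at day 5 and 3713, 4222, 1811 and 2044 at day 1. Its day 5 values spread 3.48-fold, the widest of any member, and the batch 4 value lay inside the day 1 range. Its rise of 1.12 (SE 0.41, limma adjusted p = 0.0382) was no longer called with day 1 batches 3 and 4 left out (0.604, adjusted p = 0.233). Leaving out any one of day 1 batch 3 or 4 or day 5 batch 1, 2 or 3 also ended the call of npp-21, at an adjusted p of 0.0586 to 0.102. npp-21 was also not called with libraries brought to 1 sum over genes outside the top 1% by value (0.87, adjusted p = 0.0917) or with libraries brought to 1 sum over all genes (1.04, adjusted p = 0.0657).

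Membrane nucleoporins anchor the pore in the envelope. npp-22 (NDC1; WBGene00007118; chromosome V, 11731120 to 11733472) had 6046, 3970.3, 4292 and 5449.8 at day 5 and 1189.7, 1129, 1048 and 1051 at day 1, with day 1 values within 1.14-fold of each other, and rose by 2.14 (SE 0.18, limma adjusted p = 1.25e-05). npp-12 (gp210) had 8631, 4931, 6449 and 6768 at day 5 and 4476, 5166, 1506 and 2162 at day 1. npp-25 (TMEM33) had the lowest level per kilobase of all members at day 5, with 1916, 924, 1384 and 1650.3 at day 5 and 1074, 819, 262 and 418 at day 1. The lowest day 5 value of npp-12 and of npp-25, that of batch 2, lay below the highest day 1 value. Their rises of 1.16 (SE 0.38, limma adjusted p = 0.0264) and 1.35 (SE 0.43, limma adjusted p = 0.0223) were no longer called with day 1 batches 3 and 4 left out, at 0.45 (adjusted p = 0.114) and 0.596 (adjusted p = 0.102). Leaving out any one of day 1 batch 4 or day 5 batch 1, 3 or 4 also ended the call of npp-12, at an adjusted p of 0.054 to 0.0751. npp-12 was also not called with libraries brought to 1 sum over genes outside the top 1% by value (0.904, adjusted p = 0.0655) or by edgeR (0.96, adjusted p = 0.0627). Leaving out any one of day 1 batch 4 or day 5 batch 1 or 4 also ended the call of npp-25, at an adjusted p of 0.0584 to 0.0631. npp-27, the nucleoporin left without a role group, had 1980.5, 1216, 1528 and 1692 at day 5 and 610.1, 674, 274 and 457 at day 1 and rose by 1.73 (SE 0.29, limma adjusted p = 0.000762).

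**Figure D2:**
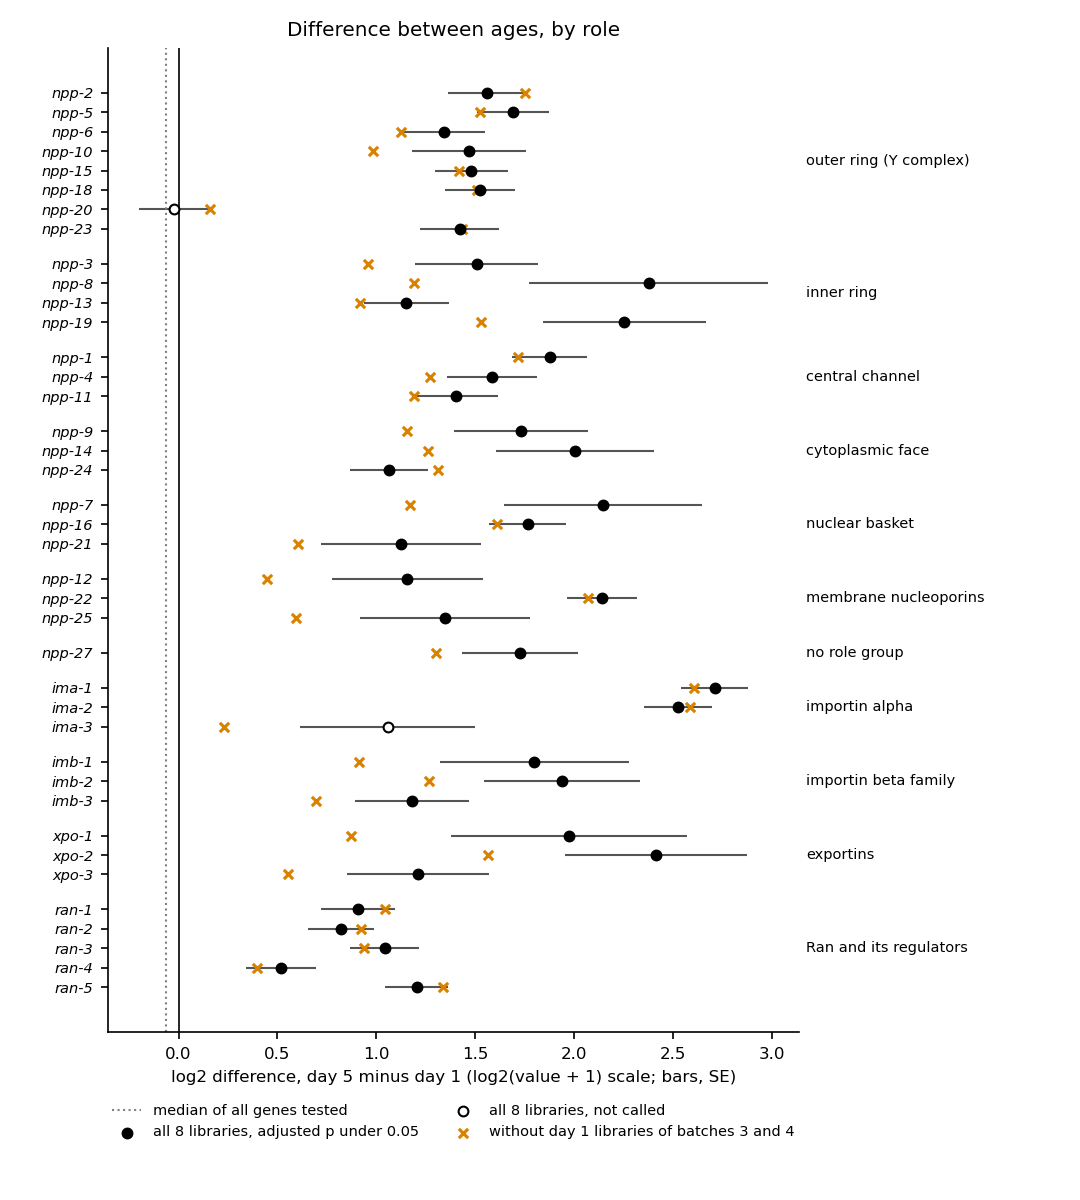
Difference of each member between day 5 and day 1 (day 5 minus day 1, in log2 of value + 1), with its SE as a bar; filled circles were called (adjusted p under 0.05), open circles were not, and orange crosses leave out the day 1 libraries of batches 3 and 4. The 37 filled circles all lie to the right of 0, and the crosses move furthest to the left for xpo-1, npp-8 and npp-7.

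Importin alpha proteins recognise the classical nuclear localisation signal and link cargo to importin beta. In the worm ima-1 and ima-2 are known mainly from the germline, and ima-3 from the germline and somatic tissues. ima-1 (WBGene00002072; chromosome V, 11239675 to 11241792) had the largest log2 difference of all 39 members, 2.71 (SE 0.17, limma adjusted p = 2.75e-06), with 3748, 3382, 3189 and 3228 at day 5 and 612, 501, 551 and 418 at day 1. ima-2 (WBGene00002073; chromosome I, 6315233 to 6317262) had 14173, 11285, 12023 and 15797 at day 5 and 2102, 2302, 2164 and 2645 at day 1, a difference of 2.52 (SE 0.17, limma adjusted p = 3.97e-06). In both genes every day 5 value was more than 4 times every day 1 value. ima-3 (WBGene00002074; chromosome IV, 7558726 to 7561664) behaved otherwise, with 9857, 6624, 7828 and 8682 at day 5 and 6825, 7112, 1551 and 3129.6 at day 1 and overlapping groups. Its difference of 1.06 (SE 0.44, limma adjusted p = 0.0659) was not called. Leaving out day 1 batches 3 and 4 gave 0.23 (adjusted p = 0.324). It was called if either of the higher day 1 libraries was left out, that of batch 1 (difference 1.33, adjusted p = 0.0269) or that of batch 2 (difference 1.35, adjusted p = 0.0263).

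The make-up of the importin alpha pool within a library does not depend on a single scale factor of that library, but a trend with exonic length does not cancel. ima-2 has 1803 exonic bases and ima-3 2614. Over all genes tested, day 1 batch 3 differed from batch 1 by a median of 0.087 at 1000 to under 2000 bases. At 2000 to under 3000 bases that median was -0.39. The part of this trend in the shares was not tested. Per kilobase of exon, ima-2 made up 57.9, 59.3, 58.9 and 63.7% of it at day 5 and 28.5, 29.996, 57.7 and 50.9% at day 1. ima-3 made up 27.8, 24.03, 26.5 and 24.1% at day 5 and 63.8, 63.9, 28.5 and 41.6% at day 1. Neither pair of groups overlapped, although the day 1 library of batch 3 came within 1 percentage point of a day 5 library in both. The mean share of ima-2 was 59.97 ± 2.55% at day 5 and 41.8 ± 14.8% at day 1 (SD, n = 4 each), and that of ima-3 was 25.6 ± 1.83% at day 5 and 49.4 ± 17.5% at day 1. Both differences, 18.2 and -23.8 percentage points, gave p = 0.0286 in a two-sided exact permutation test, the smallest that 4 against 4 libraries allow, and p = 0.0429 after Benjamini-Hochberg adjustment over the 3 genes in this exact test. The 3 shares of a library add up to its whole pool, so a higher share of one gene lowers the others. These tests are therefore not independent results. ima-1 had 14.3, 16.6, 14.6 and 12.2% at day 5 and 7.75, 6.10, 13.7 and 7.52% at day 1, with overlapping groups (exact permutation p = 0.0571, adjusted p = 0.0571). With day 1 batches 1 and 2 left out the differences were 5.65 percentage points for ima-2 and -9.44 for ima-3, and with day 1 batches 3 and 4 left out they were 30.7 and -38.2. Dropping any single day 5 library gave an exact permutation p of 0.0571 to 0.171 for these 2 genes, where 3 against 4 libraries allow 0.0286 at the least.

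**Figure D3:**
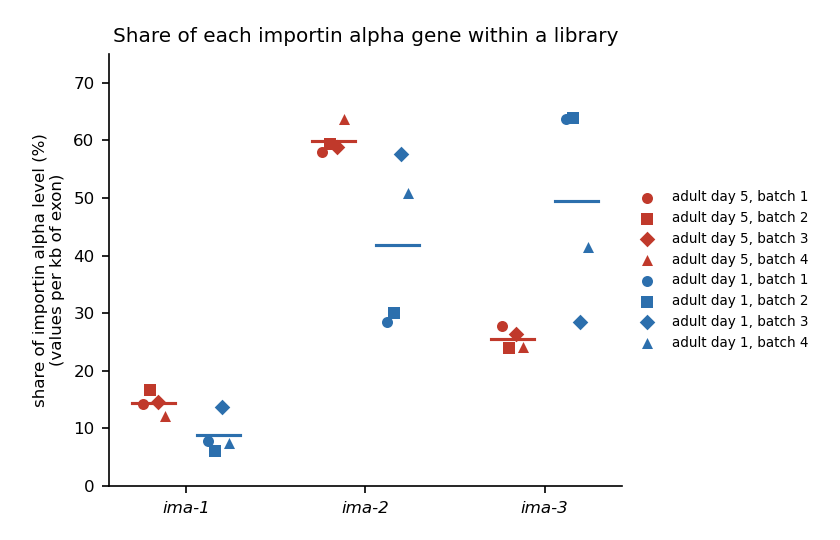
Share of each importin alpha gene in the summed importin alpha level of a library (percent, from values per kilobase of exon); points are libraries with a marker shape per batch, bars are means, and day 5 (red) stands left of day 1 (blue). ima-2 holds 57.9 to 63.7% in day 5 libraries, while the day 1 libraries spread from 28.5% in batch 1 to 57.7% in batch 3, and ima-3 runs the other way.

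The importin beta family carries cargo through the channel, and its 3 members rose with a median of 1.798, or 0.91 with day 1 batches 3 and 4 left out. imb-3 (a beta-type importin; WBGene00002077; chromosome I, 310981 to 314989), known as a carrier of ribosomal proteins and histones in other species, was the most abundant per kilobase, 5019.8 at day 5 and 2333 at day 1. It had 21682, 16367, 16026 and 20418 at day 5 and 10831, 12018, 4941 and 6837 at day 1, the smallest rise of the family at 1.18 (SE 0.29, limma adjusted p = 0.00595). imb-2 (transportin), which imports RNA-binding proteins, had 6878, 3941, 4575 and 5762 at day 5 and 2178, 2126, 602 and 1177 at day 1 and the largest rise, 1.94 (SE 0.39, limma adjusted p = 0.00218). imb-1 (the classical importin beta), the partner of importin alpha, rose by 1.798 (SE 0.48, limma adjusted p = 0.00937), and its day 1 libraries differed 4.83-fold. In all 3 genes the day 1 library of batch 3 was the lowest of the 8 libraries, followed by that of batch 4.

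The 3 exportin genes rose with a median of 1.98, or 3.08 with day 1 batches 1 and 2 left out. xpo-1 (CRM1; WBGene00002078; chromosome V, 7805064 to 7814656), the receptor for leucine-rich export signals and the most abundant exportin per kilobase, had 15953, 8108, 12023 and 11318 at day 5 and 6104, 6488, 795 and 2337 at day 1. Its day 1 libraries differed 8.16-fold, the widest spread of any member, and its difference was 1.98 (SE 0.597, limma adjusted p = 0.0175). xpo-2 (CAS), which returns importin alpha to the cytoplasm, had 10264, 6342, 6969.8 and 9339 at day 5 and 2729, 2731, 578 and 1216 at day 1 and the largest rise of the group, 2.41 (SE 0.46, limma adjusted p = 0.00154). xpo-3, related to the exportin for transfer RNA, had 3189, 2367, 2445 and 2449 at day 5 and 1787, 1745, 538 and 937 at day 1 and the smallest rise, 1.21 (SE 0.36, limma adjusted p = 0.0163). Within batch 2 the differences of these 3 genes were 0.32, 1.21 and 0.44, against 3.92, 3.59 and 2.18 within batch 3. The ratio of the mean values of xpo-1 was 3.01. With day 1 batches 3 and 4 left out the 3 differences were 0.87, 1.56 and 0.55, all still called (adjusted p = 0.0157, 0.000382 and 0.0237).

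The Ran cycle had the smallest median difference of the role groups, 0.91, and even day 1 values, within 1.397-fold in each gene. ran-1, the Ran GTPase itself (WBGene00004302; chromosome III, 10746581 to 10747728), was the most abundant member per kilobase at both ages, 21483 at day 5 and 11394 at day 1. It had 23881, 17298, 17848 and 23382 at day 5 and 9809.9, 9971, 12238 and 11688 at day 1, a rise of 0.91 (SE 0.19, limma adjusted p = 0.00234). ran-5 had 2819, 2439, 2583 and 2616 at day 5 and 1094, 974, 1356 and 1135 at day 1 and the largest rise of the group, 1.21 (SE 0.16, limma adjusted p = 0.000173). ran-4 (NTF2), which carries Ran back into the nucleus, had 2544, 1762, 1867 and 2115 at day 5 and 1662, 1465, 1243 and 1389 at day 1 and the smallest called rise of all members, 0.52 (SE 0.18, limma adjusted p = 0.0306). ran-2, the GTPase activator, and ran-3, the nucleotide exchange factor RCC1, rose by 0.82 (SE 0.17, limma adjusted p = 0.00208) and 1.04 (SE 0.18, limma adjusted p = 0.00072). ran-2 was not called with libraries centred within bins of exonic length (0.38, adjusted p = 0.208). No day 5 value of the 5 genes lay below a day 1 value of the same gene. With day 1 batches 3 and 4 left out, ran-4 was not called (0.39, adjusted p = 0.104). Leaving out any one of day 1 batch 2 or 4 or day 5 batch 1 or 4 also ended the call of ran-4, at an adjusted p of 0.0535 to 0.0803. ran-4 was also not called with libraries brought to 1 sum over genes outside the top 1% by value (0.27, adjusted p = 0.149). The differences between role groups were not tested.

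The order of the members by level per kilobase changed at several places. ran-1 led at both ages. ima-2 was the next at day 5 (7387) and number 8 of 39 at day 1 (1278). ima-1 was the last of 39 at day 1 (269.8) and number 17 at day 5 (1756). npp-20 was number 22 at day 5 and number 7 at day 1. Most neighbours in these orders did not differ beyond the spread of their libraries: ranges overlapped in 36 of 38 neighbouring pairs at day 5 and 37 of 38 at day 1. The pairs apart were ran-1 from ima-2 and imb-3 from ran-3 at day 5, and ran-1 from imb-3 at day 1. At day 1 npp-12 (561) and npp-22 (562) had almost the same mean, while the values of npp-12 spread 3.43-fold.

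At day 5 the libraries were more even than at day 1. Values more than 2-fold apart were found in 3 of the 39 members at day 5, which were npp-21, npp-25 and imb-1, and in 18 at day 1. Over all 16739 genes tested these counts were 5785 at day 5 and 8626 at day 1. Genes at 0 in a library, 1310 at day 5 and 1614 at day 1, had no ratio and were not counted as uneven. Members had a median mean value of 3029, against 221 over all genes tested, so the counts are not like for like. The median SD of log2(value + 1) was 0.28 at day 5 and 0.36 at day 1, beside 0.36 at day 5 and 0.54 at day 1 over all genes tested. Across the 39, which share the same 4 libraries, the rank correlation of exonic length with the day 1 range was 0.52, against -0.1996 over all genes tested. Among the 18 members of 3000 exonic bases or more, the log2 difference of day 1 batch 3 from day 1 batch 1 had a median of -1.53 and that of day 1 batch 4 a median of -0.87. Among the 12 members of 1000 to under 2000 bases these medians were -0.11 and -0.22. All genes showed a length trend of the same sign, with medians for batch 3 of 0.59 in the 5362 genes under 1000 bases and -1.099 in the 1649 genes of 3000 or more. Members are long, with a median exonic length of 2614 bases against 1297 over all genes tested.

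The part of this length trend in single values was not tested. With each library centred within 20 bins of exonic length, an alternative added after the trend was seen, 36 of 39 members were called higher, against 29.6% of genes, and the member median was 1.32. The member lost was ran-2. By length the median log2 difference of the members was 0.71 in the 2 under 1000 bases (ran-4 and ran-1), 1.66 in the 12 of 1000 to under 2000 bases, 1.35 in the 7 of 2000 to under 3000 bases and 1.49 in the 18 of 3000 bases or more. Over all genes tested the 4 medians were -0.15, -0.16, 0.24 and 0.29.

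**Figure D4:**
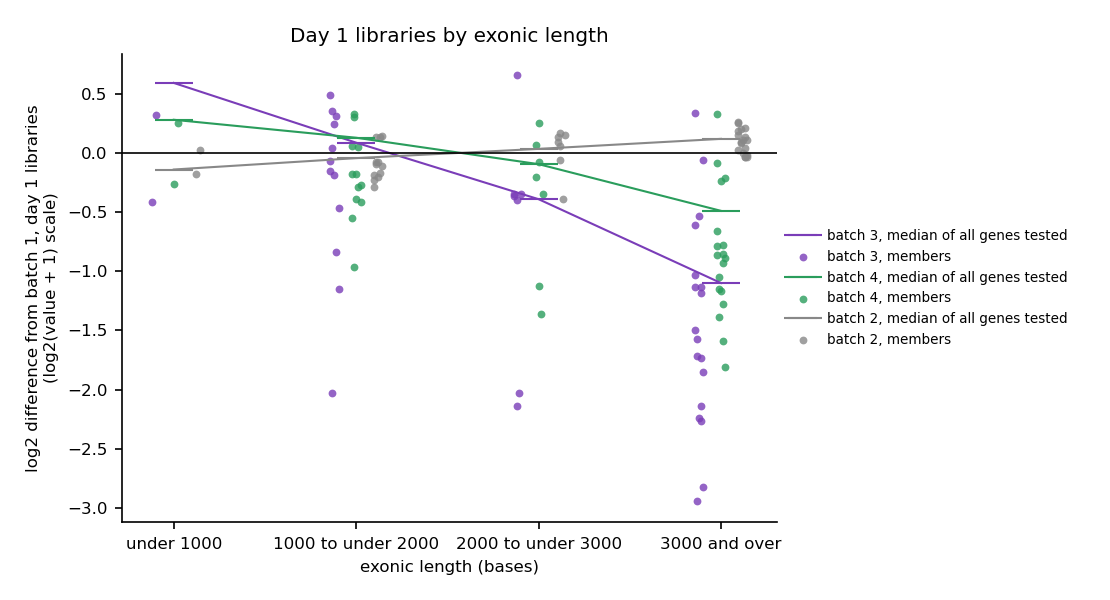
Log2(value + 1) of the day 1 libraries of batches 2, 3 and 4 minus that of batch 1, by class of exonic length; points are members and lines join the medians over all genes tested. Batch 2 stays near 0 in every class, while batches 3 and 4 fall with length, for members of 3000 bases or more to medians of -1.53 and -0.87.

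Other genes of the nuclear envelope and of transport were read from lists of related function, beside 28.8% called higher and 26.8% lower over all genes tested. Of 17 envelope and lamina genes 14 were higher, 2 lower and 1 not called, with a median of 1.76. vrk-1, a kinase of the chromatin-bridging factor BAF-1 that is needed to build the envelope, had 4746, 4028, 3614 and 3154 at day 5 and 629, 742, 403 and 544 at day 1, a rise of 2.76 (SE 0.22, limma adjusted p = 1.08e-05). sun-1, the germline envelope protein that moves chromosomes for meiotic pairing, had 3116, 1994, 2127 and 2721 at day 5 and 656, 537, 296 and 301 at day 1, a rise of 2.54 (SE 0.29, limma adjusted p = 7.9e-05). The day 5 and day 1 values did not overlap in either gene. The 2 lower genes were anc-1 and unc-83. anc-1 had 719, 751, 645 and 331 at day 5 and 2192, 2977, 2198 and 2604 at day 1, a difference of -2.08 (SE 0.27, limma adjusted p = 0.000154). unc-83 had 1195, 1131, 1235 and 986 at day 5 and 3249.6, 3807, 2516 and 3195 at day 1, a difference of -1.48 (SE 0.17, limma adjusted p = 9.02e-05). baf-1 itself, the most abundant of the list per kilobase, had 3752, 2816, 3285 and 3897 at day 5 and 2024, 1654, 4344 and 2541 at day 1 and was not called (0.47, SE 0.28, limma adjusted p = 0.19). mel-28, the chromatin-bound member of the Y complex that carries no npp name, is one of the 17 listed genes. It was singled out for that role after its value was seen, and rose by 1.73 (SE 0.38, limma adjusted p = 0.0033).

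Of 16 mRNA export genes 11 were higher, none lower and 5 not called, with a median of 1.001, against 28.8% higher and 26.8% lower over all genes tested. nxf-2, a paralog of the mRNA export receptor, had 1192, 946, 954 and 1179 at day 5 and 323, 320.03, 186 and 182 at day 1, a rise of 2.12 (SE 0.25, limma adjusted p = 8.82e-05). aly-2, an adaptor between mRNA and that receptor, had 6575, 4909, 4359.5 and 5530.5 at day 5 and 1659, 1213, 1482 and 1372 at day 1, a rise of 1.89 (SE 0.18, limma adjusted p = 2.84e-05). The main receptor nxf-1 had 4009, 2184, 2869 and 3041 at day 5 and 2555, 2161, 420.5 and 1129 at day 1, overlapping groups, and was not called (1.22, SE 0.503, limma adjusted p = 0.0636). hel-1, the helicase of the export complex and the most abundant of the list per kilobase, had 15521, 11531, 12646 and 15539.7 at day 5 and 9712, 10365, 10497 and 10790.3 at day 1 and was not called (0.41, SE 0.17, limma adjusted p = 0.0635), although its groups did not overlap. All 9 SUMO conjugation genes were higher, against 28.8% of all genes tested, with a median of 1.24. The SUMO gene smo-1, the most abundant per kilobase, had 7468, 4922, 5479.97 and 7374 at day 5 and 2979.9, 2549, 3209 and 3068 at day 1, a rise of 1.08 (SE 0.19, limma adjusted p = 0.000895). The SUMO protease ulp-1 had 4639.5, 3653, 3289.6 and 3155 at day 5 and 954, 968, 489 and 643 at day 1, a rise of 2.31 (SE 0.25, limma adjusted p = 5.57e-05), and uba-2, a subunit of the SUMO-activating enzyme, had 5741, 4219, 3832 and 5337 at day 5 and 1304, 1175, 1435 and 1241 at day 1, a rise of 1.88 (SE 0.18, limma adjusted p = 2.64e-05). In these 3 genes no day 5 value lay below a day 1 value.

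**Figure D5:**
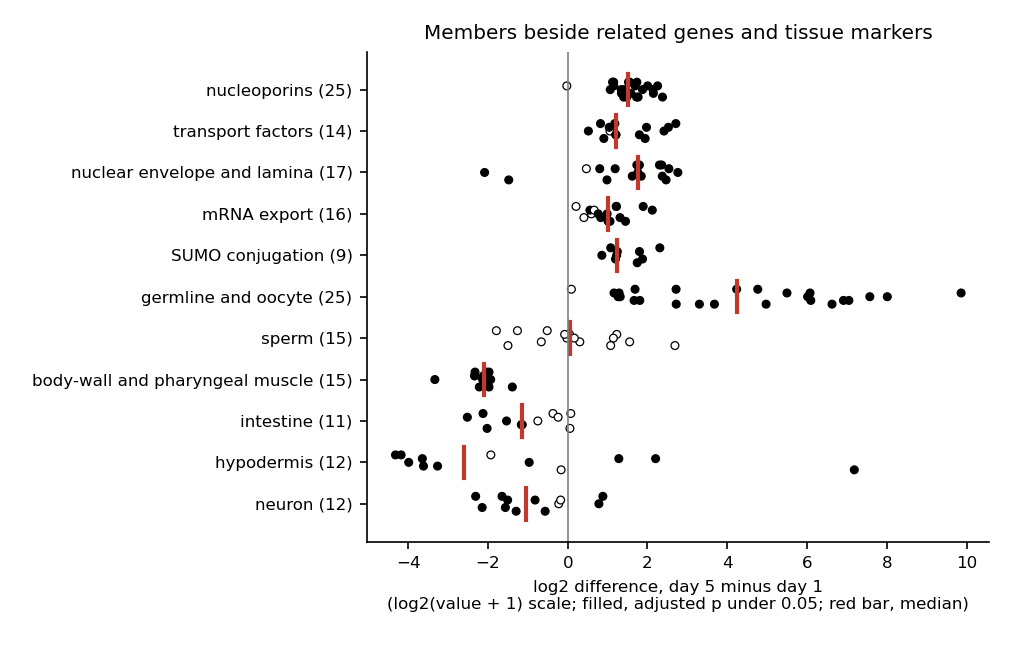
Log2 difference, day 5 minus day 1, of each gene (filled, adjusted p under 0.05; open, not called) in the nucleoporins, the transport factors, 3 lists of related function and 6 lists of tissue markers, with the median as a red bar and the number of genes in brackets. Nucleoporins have a median of 1.52 and transport factors of 1.21, between the germline markers at 4.24 and the muscle markers at -2.09.

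What the members share beyond their names was looked at in the annotation. None of the 39 lies on the X chromosome, against 14.4% of all genes tested, and 13 lie on chromosome I, 33.3% against 15.5%. Chromosome V holds 3 members, 7.69% against 21.6%. There are 3 pairs of members on the same strand within 10000 bases of each other. npp-15 ends 479 bases before ran-2 on chromosome III, and they rose by 1.48 and 0.82. imb-3 and xpo-2 lie 3559 bases apart on chromosome I, and rose by 1.18 and 2.41. npp-27 and xpo-3 lie 6441 bases apart on chromosome IV, and rose by 1.73 and 1.21. Exonic bases of 15 members (38.5%, against 30.8% of genes) are shared with another annotated gene on either strand. How the reads in these bases were assigned was not examined.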

How the data were processed

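RNA-seq of whole worms was deposited as 1 table of 17076 genes and 8 libraries. The deposited name says FPKM, yet the authors' values proved to be a signal without any length correction, each library's read counts over a single size factor. They fall on multiples of a step that is fixed in each library (0.886 to 1.13; 100% of values within 0.001 reads), so whole reads could be recovered. HISAT2, HTSeq and build WBcel235 were used per the submitters' processing notes; the sources used here give no versions. Symbols came from the table of gene names (16887 IDs matched) and coordinates (1-based) and union exon lengths from annotation release 115 of WBcel235 (17072 matched).

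The 16739 genes with a mean of at least 1 entered the test, limma 3.58.1 under R 4.3.3 (log2 of value + 1 in a model of age alone, empirical Bayes with a trend). Adjustment was by Benjamini-Hochberg across every gene tested, and an adjusted p under 0.05 was called. The plan was written for normalized values and was kept. The fit was tried first on simulated data with known changes. Alternatives were edgeR 4.0.16 (quasi-likelihood) and DESeq2 1.42.0 on the recovered reads, pseudocounts of 0.1 and 5, no filter or a minimum mean of 5, 4 scalings, and the batch as a block. Others left out each library in turn, the day 1 libraries of batches 3 and 4, or those of batches 1 and 2. No other pair was left out, and batches 3 and 4 held the lower day 1 sums over the members. Batch numbers pair libraries by their labels; the deviations of same-batch libraries correlated at -0.22, 0.24, -0.095 and -0.017 in batches 1 to 4. No libraries of an age agreed within sampling noise. Python 3.11.15, scipy 1.17.1 and matplotlib 3.10.9 were used for plots and tables, and shares were compared by an exact permutation test over libraries. Members and lists were chosen with earlier results of these data known, so no test is given over a list. Per-library values are given, in each role group, for the member with the highest level per kilobase, the largest and the smallest difference, and for members not called; of each related list, for the 2 largest called rises and falls and the most abundant gene.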

Additional observations from a re-analysis of the deposited data

Results flagged for a closer look

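The tRNA exportin relative xpo-3 had 3189 in the day 5 library of batch 1, against 2367, 2445 and 2449 in the other day 5 libraries, so that 1 library stood far from 3 that lay close together (Dixon ratio 0.9003, past the 95% critical value). It was the 1 such case in 112 groups of 4 libraries examined, over all members, importin alpha shares and list medians, and chance flags about 1 in 20 groups. The same library held the highest day 5 value of 35 of 39 members, against 5690 of 16739 genes.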

How the results depend on the processing

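Between 33 and 38 members were called higher and none lower under every alternative, with 33 to 38 when single libraries were left out. With single libraries left out, 4407 to 5024 of all genes were called higher. The replicate block called 37 members higher, against 27.7% of genes, and changed no member's call. edgeR called 36 members higher, against 27.7% of genes, and DESeq2 37, against 28.9%. On the recovered reads edgeR and DESeq2 put the median of all genes tested at -0.23 and -0.1998, and edgeR called 4633 genes higher and 4670 lower. Of 858 member values under alternatives 842 were above 0. Medians changed as follows. Without the day 1 libraries of batches 1 and 2 they were 1.89 for all members, 2.52 for the inner ring, 1.90 for the central channel, 2.31 for the cytoplasmic face, 2.096 for membrane nucleoporins, 2.62 for importin beta, 3.08 for exportins and 1.62 for SUMO genes. Without those of batches 3 and 4 they were 1.07 for the inner ring, 1.17 for the nuclear basket, 1.27 for the central channel, 0.596 for membrane nucleoporins, 0.91 for importin beta, 0.87 for exportins and 1.39 for the envelope list. Scaling on genes outside the top 1% moved the median of all genes tested to -0.298 and that of the members to 1.25, and gave 1.22 for the outer ring, 1.09 for membrane nucleoporins, 0.65 for the Ran cycle, 0.75 for mRNA export and 0.99 for SUMO genes. Centring within bins of exonic length, added after seeing the data, gave 1.15 for the outer ring, 1.39 for the envelope list and 0.77 for mRNA export. Leaving out single libraries gave 0.98 to 1.66 for membrane nucleoporins. The uncalled npp-20 was at 0.16 without the day 1 libraries of batches 3 and 4, 0.093 with length bins centred and -0.095 to 0.047 with single libraries left out. The share of ima-2 differed by 13.8 to 23.5 percentage points with single libraries left out, that of ima-3 by -30.8 to -19.02 and that of ima-1 by 4.76 to 7.31. With 2 day 1 libraries the exact permutation p could not fall under 0.0667: without batches 3 and 4 the differences were 30.7 for ima-2 and -38.2 for ima-3, and without batches 1 and 2 5.65 and -9.44. The replicate block left 18.2 and -23.8, with a smallest possible exact p of 0.125. The causes of these shifts were not tested.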

Other observations

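Because Sec13 serves the COPII vesicle coat as well as the pore, other genes of that coat and of its assembly were read beside npp-20. This list was chosen after the value of npp-20 was seen. Of these 8 other genes, sec-31 of the coat and the assembly genes sec-12 and sec-16A.1 were called higher, beside 28.8% of all genes tested. The differences of sec-12, sec-31 and sec-16A.1 were 0.59 (SE 0.197, limma adjusted p = 0.0284), 1.06 (SE 0.36, limma adjusted p = 0.0284) and 1.18 (SE 0.45, limma adjusted p = 0.0458). sar-1, sec-16A.2, sec-23, sec-24.1 and sec-24.2 were not called, at 0.34, -0.054, 0.26, -0.28 and 0.67 (limma adjusted p = 0.329, 0.915, 0.525, 0.197 and 0.178). sec-23, the inner coat subunit, had 4751, 3755, 4086 and 5106 at day 5 and 5502, 5276, 1876 and 3299 at day 1, and sec-31, the partner of Sec13 in the outer coat, had 3666, 2797, 3077 and 3379 at day 5 and 2540.4, 2439.6, 808 and 1133 at day 1. The day 5 values of sec-31 all lay above its day 1 values, while those of sec-23 overlapped.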
